A study of Solanum lycopersicum with 24 samples.

Results

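The comparison described here sets rs2z35 36 leaves against rs2z36 leaves at 25°C, so that the groups differ in the RS2Z35 allele while both carry the RS2Z36 allele. It rests on 6 of the 24 libraries of the series, and on every gene with at least 10 reads in sum over the 12 control libraries, which left 23532 of 34075 genes. The study was made on tomato (Solanum lycopersicum cv. Moneymaker) with 4 genotypes, each in 3 libraries per condition. The rs2z35 36 plants (RS2Z35 RS2Z36 KO) came from a cross of the homozygous single mutants, and the rs2z36 plants (RS2Z36 KO), like the rs2z35 plants, carried CRISPR/Cas9 alleles and no remaining T-DNA. Leaves were cut from 6-week-old plants and kept at 25°C for 1 h (control) or at 40°C for 1 h (HS), so all control values are those of excised leaves. WT libraries were not part of the contrast and are given as levels beside it. The labels name no further line of any genotype, so differences that a line carries besides its RS2Z alleles cannot be told apart from those of the alleles, and the cross may have given the rs2z35 36 plants other segregating differences.

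RS2Z35 and RS2Z36 are SR proteins, RNA-binding proteins with a region rich in serine and arginine that help the spliceosome to choose splice sites. The RS2Z subfamily is specific to plants and its members carry zinc knuckles next to the RNA recognition motif. Transcripts of SR genes are themselves often alternatively spliced, and SR proteins are known to shape the splicing of genes that act in development and stress responses. The contrast addresses what loss of RS2Z35 changes in leaf RNA levels when RS2Z36 is already disrupted and no heat is applied.

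Total counts ranged from 18995695 to 20821643 in the rs2z35 36 libraries and from 18692423 to 22517273 in the rs2z36 libraries. Levels are given as CPM (read counts scaled to library size) after TMM scaling over the 12 control libraries, and a log2FC is the log2 of rs2z35 36 over rs2z36. Differences were tested with the quasi-likelihood test of edgeR, whose p, adjusted over all tested genes after Benjamini and Hochberg, is given below as the edgeR adjusted p. The error of a log2FC is its standard error (SE). A gene is called differentially expressed where the log2FC is beyond 1 or -1 and the edgeR adjusted p is below 0.01. Leaf genes of photosynthesis, read as a check of the tissue, summed to between 4714 and 6146 CPM in rs2z35 36 and between 5182 and 5600 CPM in rs2z36.

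RS2Z35 and RS2Z36 carry the same description, and the sources used here do not tie either name to a gene number. Solyc05g054920 was therefore taken as RS2Z35 and Solyc09g005980 as RS2Z36 from their levels in the mutants, so these levels describe the genes and are no check of the labels. RS2Z35 had 41.0, 39.0 and 39.5 CPM in rs2z35 36, against 258, 238 and 283 CPM in rs2z36. All rs2z35 36 libraries lay far below all rs2z36 libraries, as the choice of the gene fixes. The log2FC was -2.70 ± 0.08 (SE, n = 3 each), and reads of the gene remained at 0.153 times the rs2z36 level. In plants with an intact RS2Z36 gene the difference was similar, with a log2FC of -2.56 for rs2z35 against WT, and the difference between these log2FC values was -0.14 ± 0.11 (edgeR adjusted p = 0.782).

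RS2Z36 had 42.8, 43.1 and 44.7 CPM in rs2z35 36, against 46.3, 44.7 and 57.6 CPM in rs2z36. The rs2z35 36 libraries lay at the lower end of the rs2z36 range with a narrow overlap, and the log2FC of -0.19 ± 0.10 did not pass the test (edgeR adjusted p = 0.648). Both groups lay below rs2z35 (88.3 to 100 CPM) and WT (67.9 to 81.4 CPM). HSFA2, a heat stress transcription factor whose transcript is a known splicing target of RS2Z proteins, had 36.6, 32.5 and 37.9 CPM in rs2z35 36 and 37.4, 33.5 and 38.3 CPM in rs2z36. Its log2FC was -0.03 ± 0.14 (edgeR adjusted p = 0.982), and counts per gene do not separate its splice forms.

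**Figure D1:**
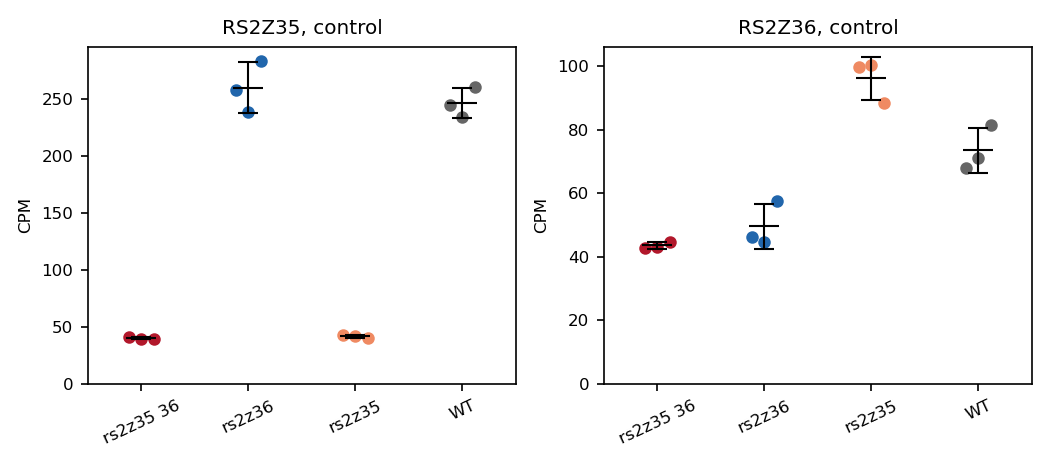
RS2Z35 (left) and RS2Z36 (right) in the 12 control libraries, in CPM, with 1 point per library, the mean as a line and the SD as bars (n = 3). RS2Z35 lies between 39.0 and 43.1 CPM in rs2z35 36 and rs2z35 and at 234 CPM or above in rs2z36 and WT, while RS2Z36 is lowest in rs2z35 36 and rs2z36.

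In total 13 genes were called, or 0.0552% of the genes tested, 10 of them higher (0.0425%) and 3 lower (0.0127%) in rs2z35 36. At an adjusted p below 0.05 and without a fold threshold there were 50 genes (0.212%), 19 higher (0.0807%) and 31 lower (0.132%). The median log2FC over all tested genes was -0.0049. All 13 called genes had groups without overlap between libraries, as had 13% of all tested genes. Without rs2z35 36 replicate 2 or without rs2z35 36 replicate 3, 7 genes were called in each case. When only the 6 libraries of the contrast were used for the fit, 6 genes were called, with adjusted p between 0.0147 and 0.0703 for the other 7. DESeq2 in place of edgeR called 38 genes, 20 higher and 18 lower, and with apeglm shrinkage 33, 18 higher and 15 lower. The balance of higher and lower genes thus depended on the method.

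**Figure D2:**
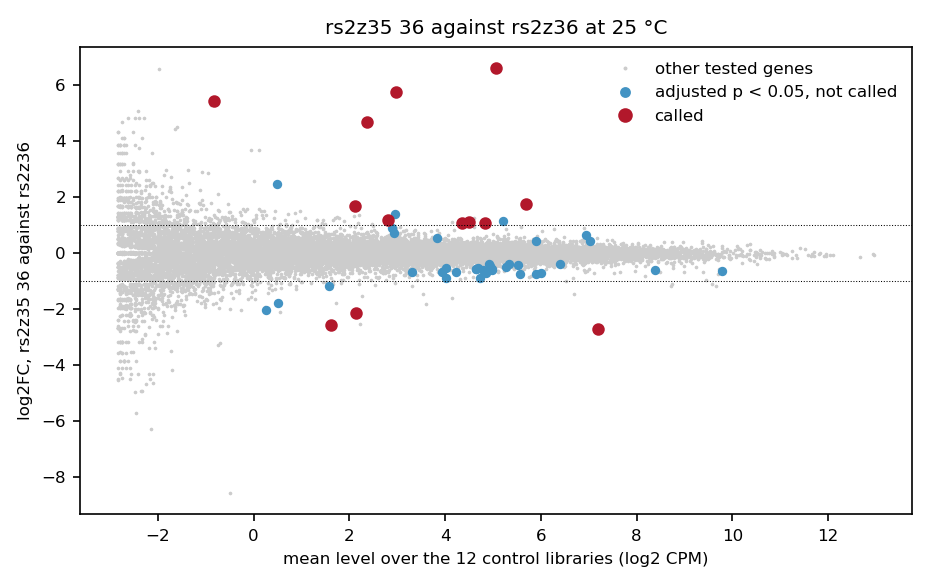
Each tested gene is plotted by its mean level over the 12 control libraries (x axis, log2 CPM) and its log2FC for rs2z35 36 against rs2z36 (y axis), with dotted lines at a log2FC of 1 and -1. The 13 called genes are red and the 37 other genes with an adjusted p below 0.05 are blue, and the 3 called genes below the lower line include RS2Z35 at a log2FC of -2.70.

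Leaving out the called gene that stayed under 1 CPM on average (Solyc10g008670, below), the 3 largest increases were in genes of terpene synthesis that lie close together in gene order on chromosome 8, and such genes make volatile compounds known from the glandular trichomes of tomato leaves. Solyc08g005677, described as a terpene synthase, had 14.6, 28.0 and 32.2 CPM in rs2z35 36, against 0.498, 0.106 and 0.179 CPM in rs2z36. Solyc08g005670, described as a phellandrene synthase, had 4.40, 6.67 and 6.12 CPM in rs2z35 36, against 0.221, 0.0529 and 0.0447 CPM in rs2z36. Solyc08g005680, described as a Z,Z-farnesyl pyrophosphate synthase, which makes a prenyl substrate for such enzymes, had 1.67, 4.32 and 4.76 CPM in rs2z35 36, against 0.221, 0.106 and 0.0893 CPM in rs2z36. In each of the genes every rs2z36 library was near the floor of detection and every rs2z35 36 library well above it, with replicate 1 the lowest of the rs2z35 36 libraries. The log2FC values were 6.59 ± 0.46, 5.74 ± 0.38 and 4.67 ± 0.58, with edgeR adjusted p of 1.84e-05, 1.71e-05 and 0.0048 in this order.

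These log2FC values rest on few reads in rs2z36. Summed over its 3 libraries, rs2z36 had 15, 6 and 8 reads of Solyc08g005677, Solyc08g005670 and Solyc08g005680, against 1487, 343 and 214 reads in rs2z35 36. Per total count the ratio was 100.3 for Solyc08g005677 (95% interval for counting error only, 60.6 to 180), 57.8 for Solyc08g005670 (26.3 to 159) and 27.1 for Solyc08g005680 (13.5 to 63.5). For Solyc08g005670 this interval, which leaves out the spread between libraries, is already wider than its SE above implies. The call of Solyc08g005680 was lost without rs2z35 36 replicate 2 (edgeR adjusted p = 0.0256) or 3 (0.0215), and without rs2z36 replicate 1 (0.018), 2 (0.0402) or 3 (0.0343).

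Across the 4 genotypes rs2z36 stood apart at these genes. Solyc08g005677 had 50.2 to 65.8 CPM in rs2z35 and 41.7 to 67.2 CPM in WT, so that rs2z35 36, at 14.6 to 32.2 CPM, was above rs2z36 and below rs2z35 and WT without overlap. Solyc08g005670 had 12.1 to 17.2 CPM in rs2z35 and 9.85 to 12.6 CPM in WT, again above the highest rs2z35 36 library. Solyc08g005680 had 8.05 to 14.6 CPM in rs2z35 and 4.88 to 7.62 CPM in WT, with the lowest WT library just above the highest rs2z35 36 library at 4.76 CPM. In the WT background the log2FC of rs2z35 against WT was 0.10 for Solyc08g005677 and 0.40 for Solyc08g005670 (edgeR adjusted p = 0.927 and 0.498). The difference between the backgrounds was 6.48 ± 0.55 for Solyc08g005677 and 5.33 ± 0.46 for Solyc08g005670 (edgeR adjusted p = 0.000454 for both), and for Solyc08g005680 it was 3.85 ± 0.71 (edgeR adjusted p = 0.0688).

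The block of 15 gene numbers around these genes held 12 tested members. The 3 genes above were the called ones, against 0.0552% of all genes tested, and the list was drawn up with the levels of these genes already known. Solyc08g005673, described as an alkyl transferase, lies among them and had 4, 2 and 8 reads in rs2z35 36 and 0 reads in each rs2z36 library. With rs2z36 set to an assumed floor of 3 reads in sum, its ratio per total count would be 4.72, which is not a lower bound. The 95% counting interval of the ratio began at 3.36. It did not pass the test (edgeR adjusted p = 0.206). Solyc08g005710, described as Terpene synthase 41, had 6.83, 9.49 and 7.69 CPM in rs2z35 36, against 4.32, 5.97 and 4.69 CPM in rs2z36, and its log2FC of 0.68 ± 0.20 did not pass the test (edgeR adjusted p = 0.262). Summed over the block, rs2z35 36 had 33.7 to 55.7 CPM, against 9.02 to 10.9 CPM in rs2z36. Terpene synthases have close copies in the tomato genome, and how reads shared between copies were treated in counting is not stated. In leaf RNA fewer trichome cells and less RNA per trichome cell cannot be told apart, and neither was tested. A difference at these genes that a line carries besides its RS2Z alleles was not tested either. The change was not shared by all terpene genes. No other tested gene of the block had an adjusted p below 0.05, and the summed level of the described terpene genes overlapped between the groups.

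**Figure D3:**
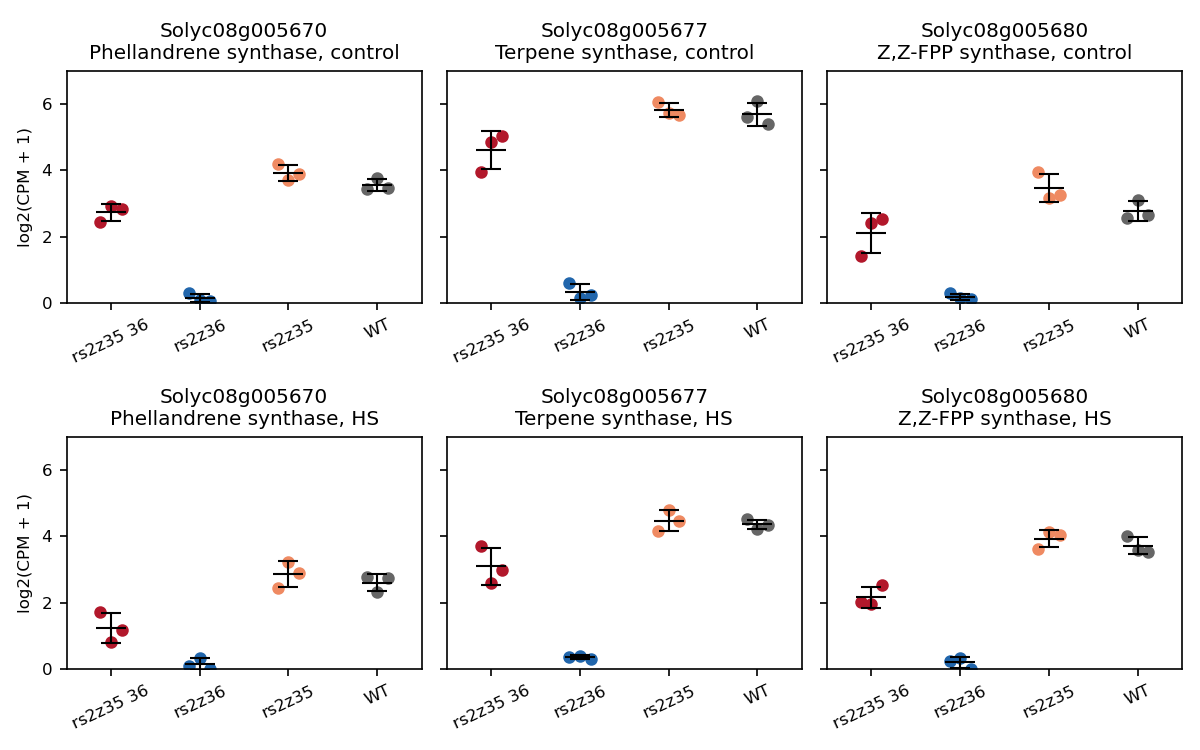
The 3 called terpene genes in all 4 genotypes, as log2(CPM + 1), in control (upper row) and HS (lower row), with 1 point per library, the mean as a line and the SD as bars (n = 3). Z,Z-FPP synthase is the Z,Z-farnesyl pyrophosphate synthase. The rs2z36 libraries lie at the bottom in each panel, and rs2z35 36 lies between rs2z36 and the other genotypes in the upper row.

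Other genes shared this order, with rs2z36 below the other genotypes. Solyc01g010180, an unknown protein, had 69.6, 66.2 and 66.0 CPM in rs2z35 36, against 21.2, 26.8 and 12.6 CPM in rs2z36. Every rs2z35 36 library was far above every rs2z36 library, and rs2z35 (59.8 to 67.4 CPM) and WT (46.4 to 63.8 CPM) were close to rs2z35 36. Its log2FC was 1.74 ± 0.21 (edgeR adjusted p = 0.00281). The adjusted p passed 0.01 without rs2z35 36 replicate 1 (0.0128), 2 (0.0179) or 3 (0.0172) and without rs2z36 replicate 1 (0.0152).

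Solyc11g020955, also an unknown protein, had 3.999, 4.51 and 5.91 CPM in rs2z35 36, against 1.44, 1.59 and 1.52 CPM in rs2z36, with 5.38 to 7.08 CPM in rs2z35 and 4.10 to 5.11 CPM in WT. Again the rs2z36 libraries stood below all others, and the rs2z35 36 libraries overlapped those of rs2z35 and of WT. Its log2FC was 1.66 ± 0.19 (edgeR adjusted p = 0.00275). The call was lost without any 1 of 5 libraries, with an adjusted p of 0.0135 without rs2z35 36 replicate 2, 0.0153 without rs2z35 36 replicate 3, and 0.0158, 0.0184 and 0.0151 without rs2z36 replicates 1, 2 and 3. In a single fit of all 24 libraries its adjusted p was 0.14.

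Solyc10g008670, described as an HXXXD-type acyl-transferase, an enzyme of a family that joins acyl groups to secondary metabolites, was the least abundant called gene and fell under the level of 1 CPM required for naming. It is named here after its values were seen. It had 23, 19 and 17 reads in rs2z35 36, against 1, 0 and 0 reads in rs2z36, and 22 and 30 reads in sum in rs2z35 and WT. Every rs2z35 36 library (0.889 to 1.16 CPM) was above all 9 other control libraries, of which the highest had 0.593 CPM. The ratio per total count was 59.7 with a 95% interval for counting error of 10.3 to 2398, so its size is not well known. Its edgeR adjusted p was 0.00562, and it was above 0.01 without any 1 of the 6 libraries: 0.0242, 0.0235 and 0.0215 without rs2z35 36 replicates 1, 2 and 3, and 0.0152, 0.0399 and 0.0305 without rs2z36 replicates 1, 2 and 3. At an adjusted p below 0.05, and chosen after their values were seen, Solyc02g072120 (ER lumen protein-retaining receptor, which returns proteins to the endoplasmic reticulum) and Solyc11g011820 (an oxidoreductase) had rs2z36 below the other genotypes too. Solyc02g072120 had 8.10 to 8.47 CPM in rs2z35 36, against 4.12 to 5.15 CPM in rs2z36, with 7.80 to 8.62 CPM in rs2z35 and 8.10 to 8.48 CPM in WT.

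A further 4 called genes were also highest in rs2z35 36, above all 9 other control libraries, and were not near 0 in rs2z36. Solyc03g006520, described as Splicing factor 3B subunit 2, a component of the complex that recognises the branch point, had 43.3, 42.9 and 43.9 CPM in rs2z35 36, against 20.7, 21.6 and 20.3 CPM in rs2z36. With 26.4 to 28.1 CPM in rs2z35 and 21.9 to 24.4 CPM in WT, both lay well under rs2z35 36 and above rs2z36 without overlap. Its log2FC was 1.06 ± 0.07 (edgeR adjusted p = 1.71e-05), against 0.24 for rs2z35 against WT, and the difference between the backgrounds was 0.82 ± 0.10 (edgeR adjusted p = 0.00724).

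Solyc02g032330, described as 3beta-hydroxysteroid-dehydrogenase/decarboxylase, an enzyme of sterol synthesis, had 35.6, 37.3 and 39.7 CPM in rs2z35 36, against 17.1, 17.9 and 17.6 CPM in rs2z36. The level in rs2z36 was also that of rs2z35 (16.2 to 19.1 CPM) and WT (16.4 to 18.5 CPM), with all these ranges overlapping. Its log2FC was 1.10 ± 0.09 (edgeR adjusted p = 5.81e-05), against -0.01 for rs2z35 against WT, and the difference between the backgrounds was 1.10 ± 0.12 (edgeR adjusted p = 0.00417).

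Solyc05g056150, whose description is that of the isomerase of histidine synthesis in the chloroplast, had 31.8, 34.4 and 35.2 CPM in rs2z35 36, against 15.3, 15.5 and 18.0 CPM in rs2z36. All rs2z35 36 libraries were above those of rs2z35 (17.6 to 17.8 CPM) and WT (13.8 to 14.2 CPM). Its log2FC was 1.05 ± 0.08 (edgeR adjusted p = 5.81e-05) and the difference between the backgrounds was 0.72 ± 0.12 (edgeR adjusted p = 0.0391).

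Solyc03g121940, described as Nuclear transcription factor Y subunit A-8, a subunit of a factor that binds CCAAT boxes, had 11.9, 12.4 and 13.1 CPM in rs2z35 36, against 6.37, 4.86 and 5.40 CPM in rs2z36. The rs2z35 libraries (5.04 to 5.54 CPM) lay inside the rs2z36 range and the WT libraries (3.92 to 4.93 CPM) around and under its lower end. Its log2FC was 1.17 ± 0.13 (edgeR adjusted p = 0.00185), while the difference between the backgrounds, 0.94 ± 0.19, did not pass the test (edgeR adjusted p = 0.0946). The call was lost without rs2z35 36 replicate 2 (0.0135) or 3 (0.0172) and without rs2z36 replicate 2 (0.0121) or 3 (0.0105).

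**Figure D4:**
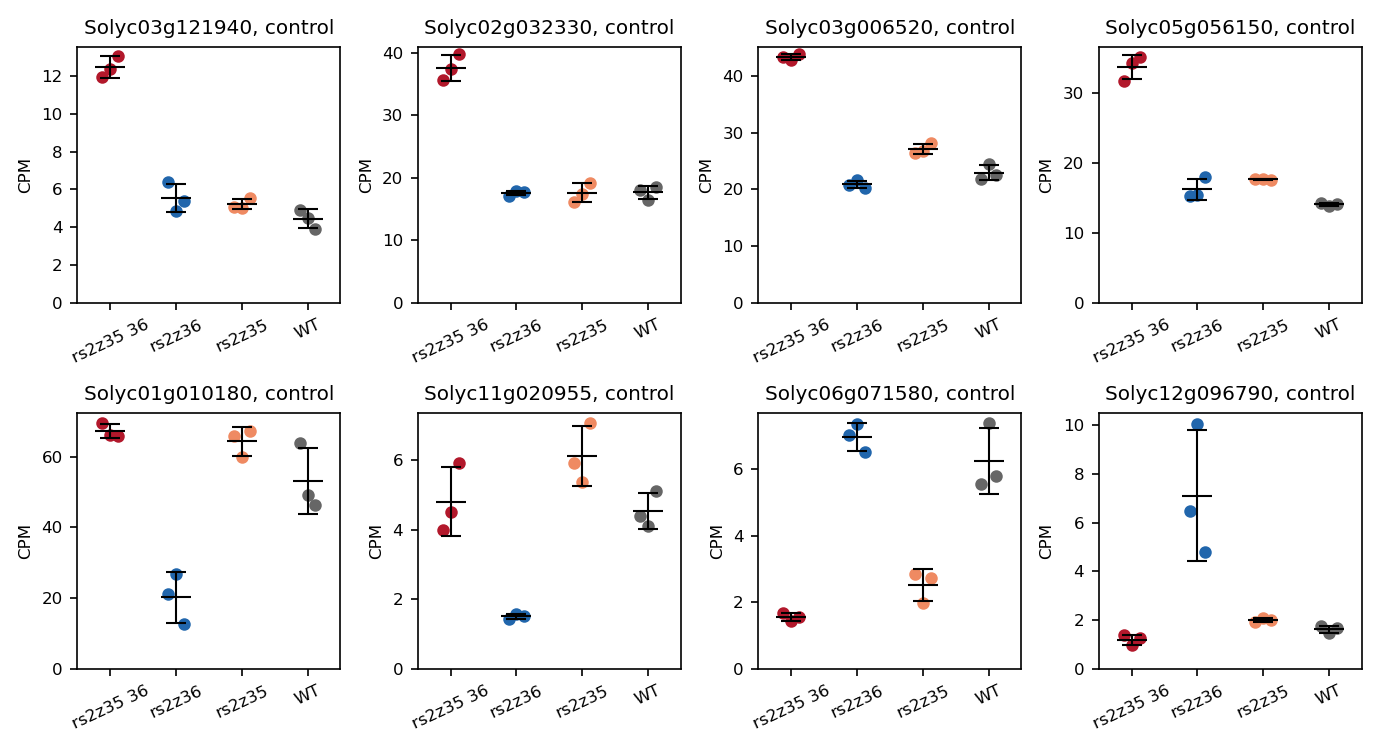
The levels of 8 called genes in the 12 control libraries, in CPM, with 1 point per library, the mean as a line and the SD as bars (n = 3). In the upper row rs2z35 36 lies above all 9 other libraries, as in Solyc03g006520 at 42.9 to 43.9 CPM. In the lower row rs2z36 is lowest for Solyc01g010180 and Solyc11g020955, both genotypes without RS2Z35 are low for Solyc06g071580, and rs2z36 is highest for Solyc12g096790.

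Besides RS2Z35, a single called gene was low in both genotypes that lack RS2Z35. Solyc06g071580, described as a protein with an ATPase domain like that of histidine kinases, DNA gyrase B and HSP90, had 1.67, 1.44 and 1.57 CPM in rs2z35 36, against 7.03, 7.35 and 6.52 CPM in rs2z36. It had 1.97 to 2.86 CPM in rs2z35 and 5.55 to 7.39 CPM in WT, so the genotypes without RS2Z35 did not overlap those with it. Its log2FC was -2.16 ± 0.18 (edgeR adjusted p = 0.000112) in rs2z35 36 against rs2z36 and -1.31 in rs2z35 against WT (edgeR adjusted p = 0.00792). The difference between these was -0.85 ± 0.25 (edgeR adjusted p = 0.343).

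RS2Z35 and Solyc06g071580 were the 2 of the 13 called genes that were also called in rs2z35 against WT, which for RS2Z35 follows from how the gene was chosen. That comparison that shares no library with the one described here, and 12 genes (0.051%) were called in it. The count was between 3 and 7 without any 1 of its 6 libraries. Of the 50 genes with an adjusted p below 0.05, 5 had an adjusted p below 0.05 in rs2z35 against WT as well, where 0.412% of tested genes did. The other 3, named after their values were seen, moved in the same direction in both. Solyc03g121850, a hypothetical protein, had 8.66, 11.4 and 12.8 CPM in rs2z35 36, against 2.99, 4.60 and 4.96 CPM in rs2z36, with 8.52 to 14.7 CPM in rs2z35 and 3.30 to 3.83 CPM in WT. Solyc12g005230, an autophagy-related protein, had 9.68 to 10.5 CPM in rs2z35 36 and 5.76 to 6.59 CPM in rs2z36, and Solyc01g091360, a protein of the DUF1499 family, had 35.9 to 39.0 CPM in rs2z35 36 and 48.5 to 51.4 CPM in rs2z36. Of the 50 genes, 39 had the same sign in both comparisons, against 53.2% of all tested genes.

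The last called gene was highest in rs2z36. Solyc12g096790, a further HXXXD-type acyl-transferase, had 1.37, 0.959 and 1.26 CPM in rs2z35 36, against 6.48, 10.05 and 4.78 CPM in rs2z36, with 1.92 to 2.07 CPM in rs2z35 and 1.46 to 1.74 CPM in WT. Every rs2z36 library was above every library of the other genotypes, and the rs2z36 libraries also differed among themselves more than those of any other genotype. Its log2FC was -2.57 ± 0.27 (edgeR adjusted p = 0.00097), and the difference between the backgrounds was -2.87 ± 0.38 (edgeR adjusted p = 0.012). The call was lost without rs2z35 36 replicate 2 (0.0135) or 3 (0.0127). Its neighbours in gene number, Solyc12g096780 and Solyc12g096800, chosen after their values were seen and without a description here, were lower in rs2z35 36 as well. Solyc12g096780 had 267, 263 and 275 CPM in rs2z35 36, against 444, 376 and 417 CPM in rs2z36 (log2FC -0.62, edgeR adjusted p = 0.0188), and Solyc12g096800 had 0.861, 0.911 and 0.628 CPM in rs2z35 36, against 3.65, 2.96 and 1.74 CPM in rs2z36 (log2FC -1.78, edgeR adjusted p = 0.0349). The libraries kept no strand, so reads of overlapping or neighbouring transcripts cannot be told apart by strand.

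The 37 genes with an adjusted p below 0.05 that were not called were mostly small decreases, and 31 of the 50 genes had an absolute log2FC of 1 or less. With an adjusted p below 0.01, 4 genes missed the fold threshold, and they are named after their values were seen. Solyc02g072120, the ER lumen receptor above, was the higher one (log2FC 0.89 ± 0.12, edgeR adjusted p = 0.00664). The other 3 were lower. Solyc12g014190, which is described as a transferase that modifies tRNA, had 9.77, 9.54 and 9.83 CPM in rs2z35 36, against 16.5, 17.7 and 19.6 CPM in rs2z36 (log2FC -0.88 ± 0.10, edgeR adjusted p = 0.00214). Solyc09g007190, a thioredoxin-like protein of the chloroplast, had 17.0, 14.1 and 13.97 CPM in rs2z35 36, against 30.6, 27.7 and 25.3 CPM in rs2z36 (log2FC -0.89 ± 0.12, edgeR adjusted p = 0.00923), and rs2z35 and WT were at the rs2z36 level or above. Solyc07g040940, with a protein kinase domain, had 17.8 to 18.4 CPM in rs2z35 36 and 25.4 to 27.2 CPM in rs2z36 (log2FC -0.54 ± 0.07, edgeR adjusted p = 0.00633).

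A few more genes of this looser set are given as single genes, also chosen after their values were seen. Solyc10g083790 (CYP97C11, a carotenoid hydroxylase) had 33.1 to 43.9 CPM in rs2z35 36 and 60.9 to 70.5 CPM in rs2z36, with 53.7 to 62.2 CPM in rs2z35 and 72.6 to 83.1 CPM in WT. Solyc06g084480 (protease Do-like 2, a chloroplast protease) had 28.9 to 35.7 CPM in rs2z35 36 and 47.2 to 60.4 CPM in rs2z36, and Solyc08g075990 (LOW PSII ACCUMULATION 3, an assembly factor of photosystem II) had 19.7 to 22.7 CPM in rs2z35 36 and 29.6 to 33.1 CPM in rs2z36. These 3 were lowest in rs2z35 36, without overlap with any other genotype, by a log2FC between -0.75 and -0.60. Solyc10g074440, a chitinase, had 151, 127 and 118 CPM in rs2z35 36, against 81.0, 81.7 and 89.6 CPM in rs2z36 (log2FC 0.65 ± 0.11, edgeR adjusted p = 0.0347), with 105 to 140 CPM in rs2z35 and 150 to 158 CPM in WT.

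Gene groups were read from descriptions available for 2404 genes, taken from the study's lists of differentially expressed genes. The groups are therefore incomplete and not independent of these samples. A description was available for all 13 called genes and for 36 of the 50 genes with an adjusted p below 0.05. Most tested genes had none, so shares over all tested genes are not a like baseline for these groups. Among 5 tested SR proteins 1 was called, RS2Z35, where 0.0552% of all tested genes were, and the median log2FC was -0.14, beside -0.0049 over all tested genes. The RS31, SR34 and remaining SR gene had log2FC values between -0.14 and 0.25 and did not pass the test. Of 11 genes of the splicing machinery, SR genes included, 1 was called higher (Solyc03g006520) and 1 lower (RS2Z35), beside 0.0425% and 0.0127% of all tested genes, and the median was -0.08. Of 5 tested terpene genes 4 had a positive log2FC and 3 were called, all higher (0.0425% of all tested genes), with a median of 4.67. The summed level of the terpene genes overlapped, at 159 to 221 CPM in rs2z35 36 and 153 to 207 CPM in rs2z36. Most of it came from Solyc01g105890, described as Monoterpene synthase 1, with means of 149 CPM in rs2z35 36 and 172 CPM in rs2z36 (log2FC -0.21, edgeR adjusted p = 0.742).

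Of 56 genes of heat shock proteins and chaperones 0 were called and 0 had an adjusted p below 0.05, with a median log2FC of -0.16 and 17 positive values. Over all tested genes 11462 of 23532 values were positive. In sum they had 4651, 4141 and 4422 CPM in rs2z35 36, against 4796, 4834 and 4787 CPM in rs2z36, so that rs2z35 36 was lower without overlap, and both were above WT (3636 to 4085 CPM). Of 18 proteinase inhibitors, which plants make after wounding, 0 were called, 14 had a negative log2FC and the median was -0.53. Their sum was 4052, 4403 and 4719 CPM in rs2z35 36, against 6833, 6108 and 8634 CPM in rs2z36, without overlap. It was 5773 to 6659 CPM in rs2z35 and 7383 to 11004 CPM in WT. At an adjusted p below 0.05, a pair of them moved in opposite directions. Solyc09g084490 (Proteinase inhibitor 1) fell to 636 to 662 CPM in rs2z35 36, against 950.3 to 1067 CPM in rs2z36 (log2FC -0.64, edgeR adjusted p = 0.0156). Solyc03g020040 (Proteinase inhibitor type-2) rose to 40.8 to 55.1 CPM in rs2z35 36, against 17.3 to 28.1 CPM in rs2z36 (log2FC 1.14, edgeR adjusted p = 0.0147).

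No gene was called in the other groups. The counts of positive values below stand beside 11462 of 23532 over all tested genes. The median log2FC was 0.24 over 77 resistance genes and receptors (54 positive), 0.23 over 14 pathogenesis-related genes (11 positive, with the chitinase above at an adjusted p below 0.05), -0.34 over 8 genes of jasmonate and oxylipin synthesis, -0.41 over 9 of phenylpropanoid and flavonoid synthesis, and -0.36 over 7 of sulfur deficiency. It was 0.00 over 24 genes of surface lipids, 0.05 over 21 cytochromes P450, 0.17 over 12 transposable elements, -0.09 over 6 of photosynthesis and -0.13 over 28 of cell division. Genes of cell division, the markers of dividing cells, summed to 1118 to 1336 CPM in rs2z35 36 and 1105 to 1748 CPM in rs2z36, and no described gene met the rule for ripe fruit markers.

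Since the double mutant came from a cross, the gene order around RS2Z35 was read as a description after the values were seen. Of the 100 genes on either side of RS2Z35, 167 were tested and 3 (1.8%) had an adjusted p below 0.05, beside 0.212% over all tested genes, and 10.2% had an unadjusted p below 0.05, beside 8.96% over all tested genes. These 3 genes, Solyc05g054940, Solyc05g055000 and Solyc05g055610, lay 2, 8 and 72 places after RS2Z35 and were all lower in rs2z35 36. Solyc05g054940, a nitrilase-like protein, had 16.9, 16.1 and 18.8 CPM in rs2z35 36, against 23.5, 27.3 and 26.6 CPM in rs2z36, while rs2z35 had 26.1 to 27.8 CPM. The called gene Solyc05g056150 lay 122 places after RS2Z35. Around RS2Z36, 1 of 166 tested genes (0.602%) had an adjusted p below 0.05, the thioredoxin-like Solyc09g007190, and 13.3% had an unadjusted p below 0.05, both above the shares over all tested genes and the second above that around RS2Z35. Whether linked parental sequence has a part in these values was not tested.

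The change that went with loss of RS2Z35 was then compared between the rs2z36 and the WT background, as the log2FC of rs2z35 36 against rs2z36 minus that of rs2z35 against WT. This difference had an adjusted p below 0.05 in 7 of the 13 called genes, beside 0.136% of all tested genes. The called genes were chosen by a log2FC that is a term of the difference, so this share follows in part from the choice. Over all tested genes the difference was past both thresholds in 7 (0.0297%). The count was 2 to 4 without any 1 library of rs2z35 36, rs2z35 or WT and 3 without rs2z36 replicate 1. Solyc02g085020, a dihydroflavonol 4-reductase of flavonoid synthesis, had 3.14, 2.45 and 3.14 CPM in rs2z35 36 and 3.43, 5.60 and 4.47 CPM in rs2z36, with 4.93 to 5.82 CPM in rs2z35 and 1.24 to 1.59 CPM in WT. The WT libraries were the lowest, and the difference was -2.61 ± 0.29 (edgeR adjusted p = 0.00417). In the contrast itself its log2FC of -0.63 ± 0.20 did not pass the test (edgeR adjusted p = 0.306). Of 32 genes with an adjusted p below 0.05 for this difference (0.136%), 11 were among the 56 tested genes of heat shock proteins and chaperones, all with a negative value, which 0.0977% of all genes tested had at this level. In all 11 the WT libraries lay below the 9 libraries of the mutants, and rs2z35 was higher than WT at an adjusted p below 0.05. In rs2z35 36 against rs2z36 the log2FC was negative in all 11, and 0 of them had an adjusted p below 0.05. The 11 genes were chosen by the difference, of which both log2FC values are terms. Their signs and the low WT levels therefore follow in part from the choice.

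The same genotypes were also sequenced after HS, from other libraries, whose counts the authors had adjusted for batch effects; the part of that step in the HS values was not tested. In HS 29 genes were called in rs2z35 36 against rs2z36 (0.125%), and this count was between 10 and 15 without any 1 of the 6 HS libraries. At an adjusted p below 0.05 there were 150 genes, 80 of them (0.345%) lower. Of the 13 genes called in control, 12 had the same sign in HS, 10 had an adjusted p below 0.05 there, where 0.648% of tested genes did, and 6 were called. Over all tested genes, 59.4% had the same sign in both conditions. Of the 50 genes with an adjusted p below 0.05 in control, 49 had the same sign in HS and 23 an adjusted p below 0.05.

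RS2Z35 had 38.4, 33.8 and 33.8 CPM in rs2z35 36 HS, against 204, 197 and 199 CPM in rs2z36 HS (log2FC -2.50). Solyc08g005677 had 12.01, 5.05 and 6.90 CPM in rs2z35 36 HS, against 0.291, 0.312 and 0.233 CPM in rs2z36 HS (log2FC 4.80, edgeR adjusted p = 0.000468). The rs2z36 libraries were thus near the floor at this terpene synthase in HS as in control. Solyc08g005680, Solyc01g010180 and Solyc06g071580 were called in HS with log2FC values of 4.52, 1.29 and -2.50. Solyc03g121940, the NF-Y subunit, had 7.51, 7.93 and 7.22 CPM in rs2z35 36 HS, against 1.51, 2.13 and 1.63 CPM in rs2z36 HS, a log2FC of 2.09 (edgeR adjusted p = 0.000468). Solyc02g032330, Solyc03g006520 and Solyc05g056150 were again higher in rs2z35 36 HS, with log2FC values of 0.53, 0.59 and 0.87 that stayed under the fold threshold (edgeR adjusted p = 0.0194, 0.0147 and 0.00128).

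Solyc12g096790 and Solyc11g020955 were, with the weakly read Solyc10g008670, the called genes without an adjusted p below 0.05 in HS. Solyc12g096790 had 0.296, 0.686 and 0.274 CPM in rs2z35 36 HS, against 0.524, 0.312 and 0.174 CPM in rs2z36 HS, and Solyc11g020955 had 4.26, 5.80 and 6.79 CPM in rs2z35 36 HS, against 4.13, 7.02 and 1.98 CPM in rs2z36 HS. The groups overlapped for both genes, with log2FC values of 0.29 and 0.35. The test of the difference between HS and control called 0 of 24583 genes with edgeR, where 3 (0.0122%) had an adjusted p below 0.05 and 1205 had an unadjusted p below 0.05, and 4 genes with DESeq2. For Solyc12g096790 this difference was 2.86 (edgeR adjusted p = 0.315) and for Solyc11g020955 it was -1.31 (edgeR adjusted p = 0.995), so neither passed the test.

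**Figure D5:**
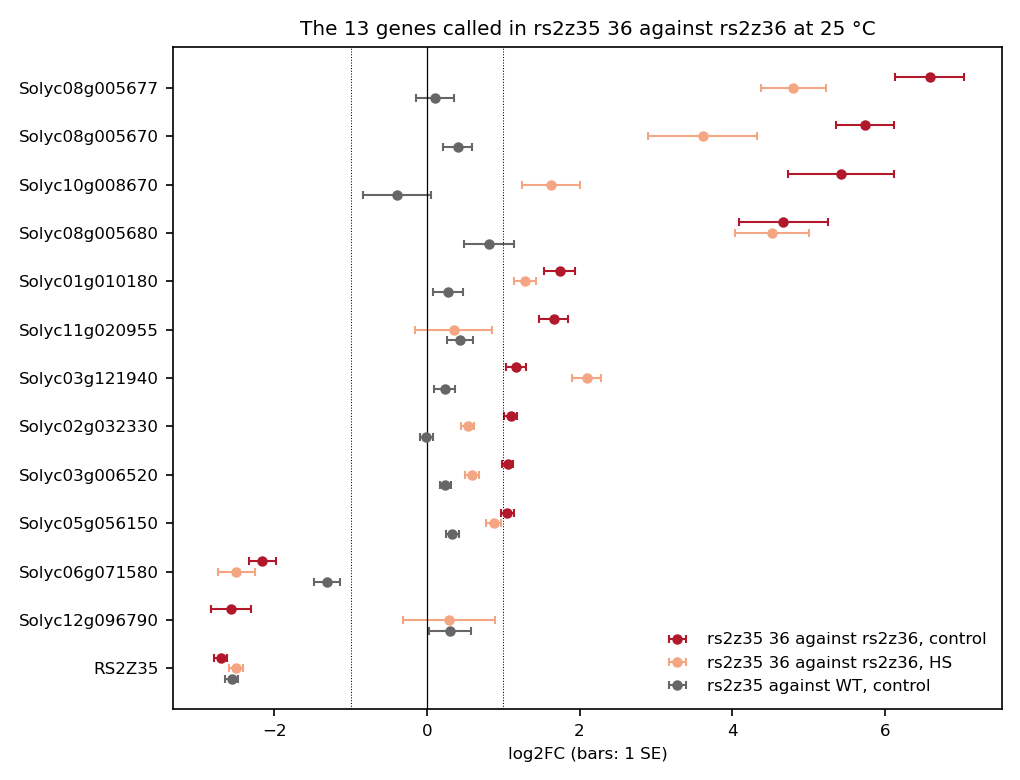
The 13 called genes with their log2FC (x axis) and SE (bars) for rs2z35 36 against rs2z36 in control (red) and HS (light orange) and for rs2z35 against WT in control (grey), with dotted lines at a log2FC of 1 and -1. The HS values lie on the side of the control values for 12 genes, Solyc12g096790 being the exception, while of the grey points RS2Z35 at -2.56 and Solyc06g071580 at -1.31 lie beyond the dotted lines.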

How the data were processed

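RNA-seq was analysed for excised tomato leaves. The authors deposited read counts per gene: libraries of polyadenylated RNA kept no strand, and reads were aligned by STAR against SL4.0 (annotation ITAG4.0) and counted with HTSeq 0.9.1. ComBat-Seq had been run on the HS counts only, as far as the sources say. Genotype and condition came from the sample labels. RS2Z35 is Solyc05g054920, RS2Z36 Solyc09g005980 and HSFA2 Solyc08g062960. The RS2Z genes carry the same description, and the numbers were assigned from their levels in the mutants in these data, so their levels check nothing. No gene of the files could be matched to the reference table, so no sequence or position is given.

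Genes with 10 reads or more in sum were tested with edgeR 4.0.16 in R 4.3.3 on the 12 libraries of a condition (TMM, quasi-likelihood, Benjamini-Hochberg), or on all 24 for the difference between HS and control. Named were RS2Z35, RS2Z36 and HSFA2, up to 12 called genes each way with at least 1 CPM and no overlap, called members of the lists, genes also called in HS or in rs2z35 against WT, and the 3 smallest adjusted p of the difference between backgrounds. Members and lists were chosen with earlier results of these data known. Alternatives were DESeq2 1.42.0 with and without apeglm 1.24.0, other scaling, filters and thresholds, other sets of libraries, a replicate block and leaving out each library. The steps were tested on simulated data. Replicates of a group differed by more than sampling noise (chi-square per degree of freedom 8.16 to 27.0). The study calls its replicates biological.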

Additional observations from a re-analysis of the deposited data

Results flagged for a closer look

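Among the genes that were called or met the rule for naming, 8 had a log2FC with loss of RS2Z35 that differed between the rs2z36 and the WT background. The difference was tested with edgeR's quasi-likelihood test (adjusted p below 0.05). The difference was positive for Solyc08g005677 (terpene synthase, 6.48), Solyc08g005670 (phellandrene synthase, 5.33), Solyc10g008670 (HXXXD-type acyl-transferase, 5.82), Solyc02g032330 (3beta-hydroxysteroid-dehydrogenase/decarboxylase, 1.10), Solyc03g006520 (Splicing factor 3B subunit 2, 0.817) and Solyc05g056150 (isomerase of histidine synthesis, 0.725). It was negative for Solyc12g096790 (HXXXD-type acyl-transferase, -2.87) and Solyc02g085020 (dihydroflavonol 4-reductase, -2.61). The chitinase Solyc10g074440, named above after its values were seen, had a difference of 0.98 ± 0.16 (edgeR adjusted p = 0.0336). The value of Solyc10g008670 rests on 1 read in sum in rs2z36 against 59 in rs2z35 36. Most of these genes had been called by the log2FC on the rs2z36 background, which is a term of the difference. Their number therefore follows in part from the choice.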

How the results depend on the processing

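Log2FC values of the called genes kept their sign under every alternative run, and 13 of the 13 remained called in DESeq2 with and without shrinkage, with DESeq2's size factors, with no filter and with filterByExpr. The count of 13 became 38 in DESeq2 and 33 with apeglm, 6 on the libraries compared alone, 21 on all 24 libraries (12 of the 13 among them) and 50 at an adjusted p below 0.05 with no fold threshold. Leaving out 1 library gave 7 to 11. The replicate numbers were not taken as pairs. Deviations of same-numbered libraries correlated at 0.17, -0.31 and 0.55 for rs2z35 36 and rs2z36 in control (18729 genes). For rs2z35 and WT in control they correlated at -0.21, -0.06 and -0.45 (18729 genes). For rs2z35 36 and rs2z36 in HS the values were -0.44, -0.37 and -0.32 (17575 genes). Not every library correlated best with its own number. With 3 libraries a group, and HS counts already adjusted for batch effects, these values cannot settle whether the numbers pair the samples. With the replicate block 13 genes were called, 11 of them shared, and Solyc08g005680 (adjusted p 0.0176) and Solyc10g008670 (0.0183) lost the call. For rs2z35 against WT, 12 became 82 in DESeq2, 62 with apeglm, 7 on the libraries compared, 33 on all libraries, 97 and 48 at an adjusted p below 0.05 without and with the fold threshold, and 3 to 7 without 1 library. For the difference between backgrounds, 7 became 63 in DESeq2, 12 without a filter, 28 on all libraries, 32 and 28 at the looser adjusted p without and with the fold threshold, and 2 to 7 without 1 library. For HS, 29 became 58 in DESeq2, 47 with apeglm, 8 with the replicate block, 150 and 65 at the looser adjusted p, and 10 to 15 without 1 library. For the difference between HS and control, 0 became 4 in DESeq2, 3 and 2 at the looser adjusted p without and with the fold threshold, and 0 to 1 without 1 library. HSFA2 lay between -0.082 and 0.032 without 1 library, so its direction is not known. The causes of these shifts were not tested. With 3 libraries a group, genes with few reads, such as Solyc10g008670, are measured with wide error.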

Other observations

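Of 7 genes described as responsive to sulfur shortage, 6 had an adjusted p below 0.05 in rs2z35 36 against rs2z36 in HS, all lower (edgeR's quasi-likelihood test, 0.345% of all tested genes were lower at this level), with a median log2FC of -1.80, beside -0.36 in control. The descriptions were drawn from the study's lists of differentially expressed genes in these samples, so the share over all tested genes is not a like baseline. Solyc03g096760, described as RESPONSE TO LOW SULFUR 2, had 6.09, 7.55 and 4.60 CPM in rs2z35 36 HS, against 20.5, 20.2 and 22.7 CPM in rs2z36 HS, with 4.91 to 7.97 CPM in rs2z35 HS and 4.18 to 7.54 CPM in WT HS. The rs2z36 HS libraries thus stood above all others. A pair of genes outside this group, called lower in HS and chosen after their values were seen, had rs2z36 HS above all other HS libraries too. Solyc02g032860, a 5'-adenylylsulfate reductase, had 68.9, 82.4 and 69.5 CPM in rs2z35 36 HS, against 174, 172 and 195 CPM in rs2z36 HS, and Solyc02g082850, a serine acetyltransferase, had 3.55, 4.43 and 5.03 CPM in rs2z35 36 HS, against 10.3, 11.3 and 12.6 CPM in rs2z36 HS. The differences between HS and control did not pass the test for these 3 genes (edgeR adjusted p = 0.977, 0.644 and 0.742).

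For 3 genes the contrast did differ between HS and control at an adjusted p below 0.05. Solyc02g086100, Elongator complex protein 5, had 3.02, 3.81 and 3.12 CPM in rs2z35 36 HS, against 0.757, 1.04 and 0.872 CPM in rs2z36 HS, while in control the groups overlapped at 3.80 to 4.08 CPM in rs2z35 36 and 3.23 to 3.93 CPM in rs2z36 (difference 1.72 ± 0.26, edgeR adjusted p = 0.0191). Solyc07g055150, a plant cysteine oxidase, had 21.5 to 24.96 CPM in rs2z35 36 HS and 9.55 to 14.8 CPM in rs2z36 HS, against a control log2FC of -0.36 (difference 1.36 ± 0.21, edgeR adjusted p = 0.0191). Solyc04g024340, without a description here, had 137 to 150.1 CPM in rs2z35 36 HS and 84.8 to 102 CPM in rs2z36 HS (difference 0.91 ± 0.15, edgeR adjusted p = 0.0428).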
